A study of Mus musculus with 12 samples.

Results

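Wnt proteins are secreted signals that bind Frizzled receptors on the cell surface, and the genes described here encode the ligands (Wnt), the receptors (Frizzled, Fzd) and the secreted inhibitors of the Sfrp and Dkk families. Members were taken from the gene table by symbol: Wnt, Fzd, Sfrp or Dkk followed by a number and, for Wnt, an optional a or b. This gave 37 genes of 55487, namely 19 Wnt, 10 Fzd, 4 Sfrp and 4 Dkk genes.

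RNA had been measured by polyA RNA-seq in female mouse embryonic stem (ES) cells, pluripotent cells derived from the early embryo, of a hybrid between the strains C57BL6 and CAST. The 4 groups of 3 libraries were wild type at day 0, Sirt7 knockout (labelled SIRT7-KO) at day 0, wild type at day 7 and knockout at day 7. Cells of day 0 had been kept with leukaemia inhibitory factor (LIF, a cytokine that holds ES cells undifferentiated), and those of day 7 had been without it for 7 days. A separate treatment label (LIF or None) was tied to genotype and replicate number and was the same at both days, so it was not used to form groups. No source used here says whether the libraries of a group came from separate cultures or clones, so p-values measure the spread between libraries, which may be technical. Library totals ran from 25190483 to 69079368 counts. Sirt7, the gene named as knocked out, was not reduced in the libraries labelled knockout, and had 16.9 to 23.8 CPM (reads scaled to library size) there against 8.03 to 12.7 CPM in wild type at day 0, and 20.1 to 25.1 against 10.2 to 15.3 CPM at day 7. How the gene was changed, and whether its RNA should be lost, is not given in the sources used here, so the level of Sirt7 does not check the label, and these groups are called "labelled knockout" below.

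A Wnt ligand is lipid-modified by the enzyme Porcn and carried to the cell surface by Wls. When it joins a Frizzled to the co-receptor Lrp5 or Lrp6, beta-catenin is spared from destruction and acts with the DNA-binding proteins Tcf7, Tcf7l1, Tcf7l2 and Lef1 on target genes, while ligands such as Wnt5a and Wnt11 are best known for signalling without beta-catenin. Sfrp proteins carry a Frizzled-like domain and bind Wnts outside the cell, and Dkk1, Dkk2 and Dkk4 bind Lrp5 and Lrp6. In the mouse embryo Wnt3 is required for the primitive streak, from which mesoderm arises, and in ES cells the pathway is known both for support of self-renewal and for entry into mesoderm.

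Promoter sequence was available from RefSeq (GRCm38.p6) for 25 of the 37 genes, as 28 windows of the 250 bases before an annotated start. The DNA word bound by Tcf and Lef proteins was searched as CTTTGA and CTTTGT on both strands (reverse complements TCAAAG and ACAAAG). The 6 windows below are examples, with each word in capitals. They comprise Dkk1, Fzd1, Dkk2 and Fzd7, which were higher at day 7 and hold the word, Wnt4, the ligand with the highest level at day 7, and Sfrp5, the member with the largest fall. Other genes higher at day 7 whose windows held no word, such as Wnt2, Wnt3, Wnt9b and Fzd4, are not shown. The examples thus do not show how often rising genes hold the word.
Dkk1, chr19:30549497-30549746, minus strand: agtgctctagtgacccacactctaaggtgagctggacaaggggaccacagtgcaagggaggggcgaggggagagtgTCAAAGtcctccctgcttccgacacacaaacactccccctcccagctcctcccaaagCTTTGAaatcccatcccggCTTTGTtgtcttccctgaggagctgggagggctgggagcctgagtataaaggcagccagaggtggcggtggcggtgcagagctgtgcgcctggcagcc
Fzd1, chr5:4758217-4758466, minus strand: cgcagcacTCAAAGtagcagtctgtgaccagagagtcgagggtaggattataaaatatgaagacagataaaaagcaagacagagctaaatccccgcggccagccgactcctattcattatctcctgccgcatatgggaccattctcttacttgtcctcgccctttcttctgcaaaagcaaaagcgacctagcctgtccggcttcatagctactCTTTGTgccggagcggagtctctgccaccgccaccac
Dkk2, chr3:132085042-132085291, plus strand: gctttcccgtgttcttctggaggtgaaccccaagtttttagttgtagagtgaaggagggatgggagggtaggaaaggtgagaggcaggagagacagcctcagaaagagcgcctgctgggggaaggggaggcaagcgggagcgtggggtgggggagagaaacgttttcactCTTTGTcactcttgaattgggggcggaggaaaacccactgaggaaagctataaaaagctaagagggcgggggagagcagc
Fzd7, chr1:59481897-59482146, plus strand: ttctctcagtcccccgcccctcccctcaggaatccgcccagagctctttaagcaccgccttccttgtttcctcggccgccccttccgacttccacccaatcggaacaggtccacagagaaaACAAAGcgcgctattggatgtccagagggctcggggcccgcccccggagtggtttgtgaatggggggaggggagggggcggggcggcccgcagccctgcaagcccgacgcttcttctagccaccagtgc
Wnt4, chr4:137277385-137277634, plus strand: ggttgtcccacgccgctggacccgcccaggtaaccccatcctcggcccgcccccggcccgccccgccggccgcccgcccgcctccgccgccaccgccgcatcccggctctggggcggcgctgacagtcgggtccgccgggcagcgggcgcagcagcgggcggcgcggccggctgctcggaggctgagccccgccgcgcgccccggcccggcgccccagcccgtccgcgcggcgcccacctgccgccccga
Sfrp5, chr19:42202253-42202502, minus strand: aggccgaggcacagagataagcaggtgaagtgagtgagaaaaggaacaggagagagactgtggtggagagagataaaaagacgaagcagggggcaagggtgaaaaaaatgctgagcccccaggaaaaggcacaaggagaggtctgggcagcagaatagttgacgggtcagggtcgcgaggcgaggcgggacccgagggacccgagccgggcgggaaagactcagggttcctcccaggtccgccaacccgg
The Dkk1 window held 3 words, beginning 174, 117 and 98 bases before the RefSeq start, and 0.776% of the 32851 RefSeq windows of the same length held 3 or more. RefSeq starts differ in part from the gene positions given below. The windows of Dkk1 and Wnt4 reach into the genes so placed, with the Dkk1 words at 117 and 98 bases inside. Those of Fzd1 and Fzd7 end short of their genes. The Fzd1 window held 2, and those of Dkk2 and Fzd7 held 1 each. At least 1 word was found in 7 of the 28 windows of member genes (25.0%) against 27.6% of all windows, so a word was no more frequent among the members than elsewhere. It was found in 6 of the 20 windows of genes higher at day 7 and in 0 of the 4 windows of lower genes. The Wnt4 window held none and was 85.2% G and C, where the median of all windows was 52.4%. A match of letters is a description and not a binding site, and the absence of these letters in a window says nothing of the protein.

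Of the 37 genes, 33 had enough reads to be tested. In wild type, 24 were higher at day 7, 6 were lower and 3 were not called, and in the labelled knockout the same division of 24, 6 and 3 was found (edgeR quasi-likelihood test, Benjamini-Hochberg adjusted p at most 0.05 over 19235 genes). Over all genes tested, 32.9% were called higher and 32.1% lower in wild type (65.1% either way), and 31.1% and 32.3% in the labelled knockout (63.4% either way). Of the 33, 7 (Wnt2, Wnt7a, Wnt8a, Wnt9b, Wnt10b, Dkk1 and Dkk2) reached the count filter only in day 7 libraries, so that they could enter the test only by being higher there, and the counts above describe the tested members and support no statement on the families. The 6 lower genes were Fzd5, Fzd9, Sfrp1, Sfrp2, Sfrp4 and Sfrp5 in both genotypes, and the 3 not called were Wnt3a, Wnt7b and Wnt10a in both. The libraries of the days did not overlap for 30 of the 33 in each genotype, against 72.0% of all genes in wild type and 69.5% in the labelled knockout. Because each value is from a whole culture, a change in the number of cells of a type cannot be told apart from a change in RNA per cell.

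Summed over a family as CPM per kilobase of exon (a scale on which genes of different length can be compared), the Wnt ligands went from 3.52 ± 0.30 at day 0 to 101 ± 8.46 at day 7 in wild type (SD, n = 3), and from 3.46 ± 0.552 to 101 ± 4.46 in the labelled knockout. Frizzled receptors went from 22.2 ± 0.80 to 102 ± 8.13 in wild type and from 25.7 ± 4.91 to 104 ± 0.323 in the labelled knockout. The Sfrp sum ran the other way, from 61.2 ± 11.6 to 6.87 ± 0.734 in wild type and from 61.5 ± 4.77 to 6.42 ± 0.379 in the labelled knockout. The Dkk sum went from 0.828 ± 0.247 to 22.5 ± 2.08 in wild type and from 0.847 ± 0.201 to 23.7 ± 0.84 in the labelled knockout. At day 0 the cells thus carried more RNA of Sfrp inhibitors than of Wnt ligands, with a ratio of the sums of 13.4 to 20.9 over the wild-type libraries. At day 7 the ratio was 0.0607 to 0.0745 in wild type and 0.0585 to 0.068 in the labelled knockout. The ratio of the Dkk sum to the Wnt sum overlapped between the days, at 0.177 to 0.278 in wild type at day 0 and 0.196 to 0.241 at day 7.

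**Figure D1:**
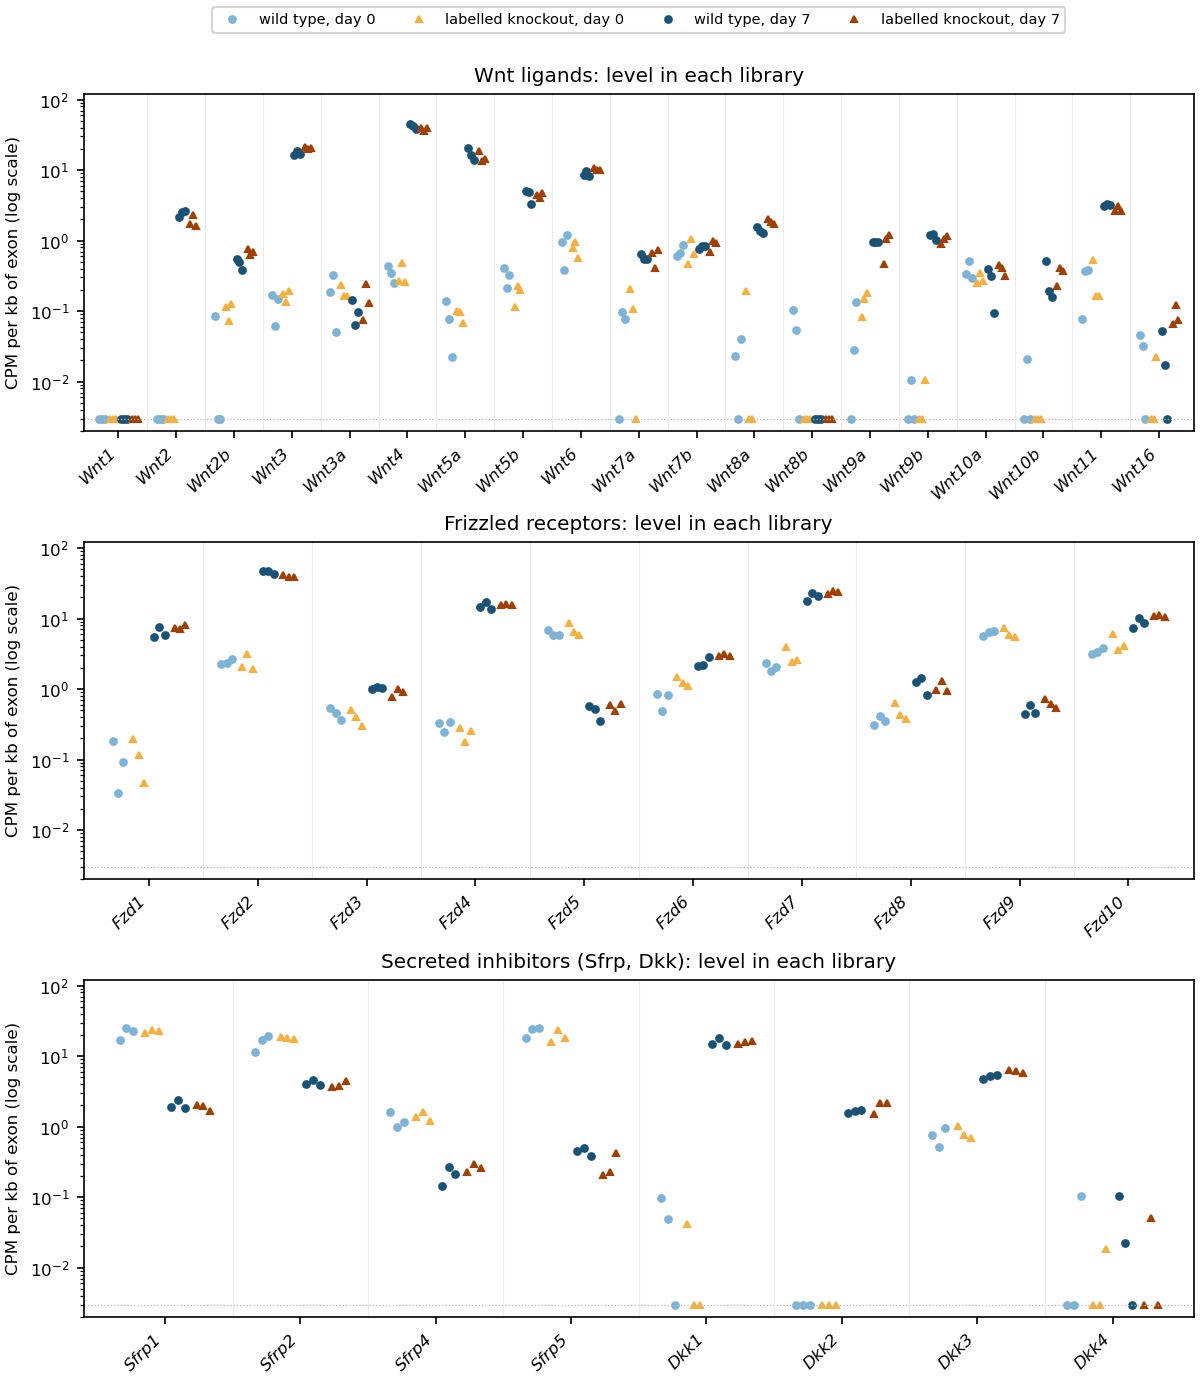
Level of each member in each library, as CPM per kilobase of exon on a log scale, with 3 points per group and points on the dotted line standing for libraries without a read. Most Wnt points of day 7 lie above those of day 0, Fzd5, Fzd9 and the Sfrp genes lie below, and circles (wild type) and triangles (labelled knockout) of 1 day lie close together.

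Markers of other cell types moved with the day and are given once here. The summed level of 9 naive pluripotency markers was 6537 to 7062 CPM over the day 0 libraries and 372 to 410 CPM over those of day 7. These defining markers were thus present in the cells labelled ES cells at day 0. The sum hides a difference in Esrrb, at 38.5 to 54.5 CPM in wild type and 173 to 315 CPM in the labelled knockout at day 0. Of the 9, 1 was called higher in the labelled knockout at day 0 by edgeR (0.13% of all genes called). For the interaction 1 was called lower (0.026% of all genes called). The sum of 8 primitive streak and mesoderm markers was 13.8 to 18.2 CPM at day 0 and 2000 to 2507 CPM at day 7, with 7 of 8 called higher in each genotype. The sum of 7 fibroblast markers, which would also detect feeder cells, was 21.9 to 31.1 CPM at day 0, with 2 or 3 of the 7 at 0 reads, and 1051 to 1510 CPM at day 7, with none at 0. Thy1 was the highest of the 7 at day 0 and fell. Its mean went from 22.2 to 4.39 CPM in wild type and from 25.1 to 4.32 CPM in the labelled knockout. The sum of 6 endoderm markers was 12.6 to 17.5 CPM at day 0 and 158 to 174 CPM at day 7, that of 6 neural markers 354 to 461 and 210 to 262 CPM, and that of 6 trophoblast markers 48.5 to 71.8 and 125 to 158 CPM. Within these lists genes went both ways. In wild type Gata4 and Gata6 rose to means of 103 and 61.5 CPM, while Sox7 fell from 9.88 to 1.40 CPM. Tubb3 fell from 376 to 72.1 CPM, while Nes rose from 23.0 to 150 CPM. Cdx2 and Gata3 rose to 84.4 and 48.0 CPM, while Tfap2c fell from 43.5 to 15.5 CPM. Called higher and lower were 6 and 1 fibroblast, 4 and 1 endoderm, 1 and 4 neural, and 2 and 2 trophoblast markers (32.9% and 32.1% of all genes). The part of these cell types in the changes of the Wnt, Frizzled, Sfrp and Dkk genes was not tested.

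Among the ligands, 13 of 19 Wnt genes were called higher at day 7 and none lower, in either genotype, where 32.9% of all genes were called higher in wild type and 31.1% in the labelled knockout. Of the 13, 5 (Wnt2, Wnt7a, Wnt8a, Wnt9b and Wnt10b) entered the test only through day 7, and the call of Wnt7a in the labelled knockout was lost under 6 alternatives. At day 0 no Wnt gene was above 1 CPM per kilobase on average. The highest were Wnt6, at 0.846 ± 0.418, and Wnt7b, at 0.716 ± 0.14 CPM per kilobase in wild type, whose libraries overlapped. They were followed by Wnt10a at 0.38 ± 0.111 and Wnt4 at 0.345 ± 0.0949, which overlapped each other. At day 7 Wnt4 stood first at 41.6 ± 3.35 CPM per kilobase in wild type and 38.5 ± 1.87 in the labelled knockout, above every library of the next gene. Wnt3 (17.4 ± 1.13) and Wnt5a (17.0 ± 3.55) came next and overlapped in wild type, then Wnt6 (8.76 ± 0.778) and Wnt5b (4.44 ± 0.989). In the labelled knockout the order was the same, with Wnt3 (20.6 ± 0.838) above Wnt5a (15.7 ± 2.81) in all libraries. Wnt4 alone made up 41.2% ± 0.837 of the Wnt sum in wild type at day 7 and 38.1% ± 1.14 in the labelled knockout.

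Wnt4 (chr4:137277489-137299726, plus strand), a ligand with known roles in kidney and gonad formation, was read at 1.84, 1.46 and 1.04 CPM in the wild-type libraries of day 0 and at 188, 175 and 160 CPM in those of day 7. The labelled knockout held 1.13, 2.04 and 1.08 CPM and then 165, 152 and 167 CPM. The days were far apart in every library of both genotypes, with a log2 difference of 6.92 (SE 0.256, adjusted p = 1.77e-09) in wild type and 6.85 (SE 0.256, adjusted p = 2.12e-09) in the labelled knockout.

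Wnt3 (chr11:103774150-103817957, plus strand), the primitive streak ligand, was at 0.519, 0.188 and 0.452 CPM in wild type at day 0 and at 51.2, 57.5 and 51.9 CPM at day 7. In the labelled knockout the values were 0.546, 0.416 and 0.602 CPM and then 66.1, 61.2 and 62.4 CPM. The rise was 7.18 (SE 0.273, adjusted p = 2.11e-09) and 6.89 on the log2 scale (SE 0.263, adjusted p = 2.51e-09). Its neighbour Wnt9b (chr11:103727364-103749821, minus strand), a ligand known from kidney development, lies 24328 bases away in the opposite orientation and also rose. Wnt9b had 2 reads in the 3 wild-type libraries of day 0 and 730 in those of day 7, a ratio of 258 after scaling for depth (95% counting interval 71.1 to 2131), and 2 and 460 reads in the labelled knockout, a ratio of 226 (62.1 to 1868). Its libraries of day 7 held 5.50, 5.54 and 4.61 CPM in wild type and 4.07, 4.73 and 5.26 CPM in the labelled knockout.

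Wnt5a (chr14:28504750-28527448, plus strand), the main ligand of signalling without beta-catenin, was at 1.08, 0.612 and 0.174 CPM in wild type at day 0 and at 162, 130 and 107 CPM at day 7. The labelled knockout held 0.784, 0.757 and 0.53 CPM and then 148, 106 and 114 CPM. The log2 differences were 7.76 (SE 0.422, adjusted p = 3.42e-08) and 7.49 (SE 0.416, adjusted p = 4.35e-08), and the days did not overlap. Wnt5b (chr6:119432531-119544347, minus strand), its close relative, went from 1.08, 0.565 and 0.869 CPM to 13.4, 13.2 and 8.75 CPM in wild type. Under the knockout label it went from 0.307, 0.606 and 0.53 CPM to 11.8, 10.8 and 12.4 CPM. These are log2 rises of 3.83 (SE 0.299) and 4.59 (SE 0.315), smaller than those of Wnt5a. The genotypes overlapped at both days.

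Wnt2 (chr6:17988940-18030585, minus strand), a ligand known from heart and lung, was without reads in all of the 6 libraries of day 0, which allows up to 0.0155 CPM over them. At day 7 it was at 4.95, 5.74 and 5.92 CPM in wild type and 3.89, 5.20 and 3.68 CPM in the labelled knockout, so that it was at least 177-fold and at least 137-fold higher than a floor of 3 reads over the group. Its paralog Wnt2b (chr3:104945272-104961921, minus strand) was at 0.36, 0 and 0 CPM in wild type at day 0 and at 2.34, 2.11 and 1.63 CPM at day 7. The corresponding values under the knockout label were 0.477, 0.303 and 0.53 CPM and then 3.22, 2.67 and 2.90 CPM. The log2 rise of 4.26 in wild type (SE 0.885, adjusted p = 0.00136) rests on 9 reads at day 0, all in replicate 1, and that of the labelled knockout was 2.72 (SE 0.748, adjusted p = 0.00782).

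Wnt8a (chr18:34542313-34548273, plus strand), expressed in the posterior of the gastrulating embryo, had 3 reads in wild type at day 0 and 337 at day 7, a ratio of 79.3 (26.9 to 386). Its levels at day 7 were 2.75, 2.39 and 2.21 CPM in wild type and 3.53, 3.21 and 2.999 CPM in the labelled knockout, where all 10 reads of day 0 lay in replicate 1. The log2 rise in the labelled knockout was 4.87 (SE 0.911, adjusted p = 0.000675). Wnt9a (chr11:59306928-59333552, plus strand), a ligand of joint formation, went from 0, 0.0942 and 0.452 CPM to 3.14, 3.18 and 3.21 CPM in wild type. The labelled knockout went from 0.273, 0.492 and 0.602 CPM to 1.53, 3.51 and 3.97 CPM. The rises were 4.11 (SE 0.75) and 2.69 (SE 0.676) on the log2 scale. The knockout-labelled replicate 1 was low at day 7, beside an even wild-type group.

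Wnt6 (chr1:74771892-74785322, plus strand), which led the ligands at day 0, went from 2.08, 0.848 and 2.64 CPM to 18.5, 21.1 and 18.0 CPM in wild type and from 1.74, 2.08 and 1.25 CPM to 23.4, 22.3 and 22.1 CPM in the labelled knockout. The rises were 3.39 (SE 0.34) and 3.75 (SE 0.345) on the log2 scale. Wnt10a, which lies 6193 bases downstream of Wnt6 on the same strand, stayed near 1 CPM. It was at 0.839, 1.25 and 0.73 CPM in wild type at day 0 and at 0.971, 0.787 and 0.232 CPM at day 7, with a log2 difference of -0.48 (95% interval -1.496 to 0.54). The labelled knockout libraries held 0.614, 0.871 and 0.651 CPM and then 1.12, 1.01 and 0.774 CPM, and the difference was 0.45 (-0.58 to 1.48). Neighbouring Wnt genes thus moved together at Wnt3 and Wnt9b and not at Wnt6 and Wnt10a. Of the other neighbours, Wnt9a rose while Wnt3a, 16175 bases away, was not called, and Wnt10b rose while Wnt1 had no read.

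Wnt7b (chr15:85535437-85582473, minus strand), known from lung and placenta, was the ligand whose level was most alike between the days. Its values were 2.96, 3.30 and 4.27 CPM and then 3.68, 4.17 and 4.10 CPM in wild type, and 2.32, 5.22 and 3.18 CPM and then 3.42, 4.83 and 4.48 CPM in the labelled knockout. The log2 difference was 0.18 in wild type (95% interval -0.44 to 0.81) and 0.25 in the labelled knockout (-0.38 to 0.88), so a change of more than 2-fold lies outside both intervals. The third ligand not called was Wnt3a, at 0.139 to 0.895 CPM in all libraries of day 0 and 0.178 to 0.675 CPM in those of day 7, with wide intervals of -2.37 to 0.56 in wild type and -1.80 to 1.11 in the labelled knockout.

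Wnt11, the other ligand best known for signalling without beta-catenin, stood next after Wnt5b per kilobase at day 7 in both genotypes (3.2003 ± 0.127 CPM in wild type), where it overlapped Wnt5b in wild type. It was higher at day 7 by 3.51 (SE 0.533) in wild type and 3.29 (SE 0.531) in the labelled knockout on the log2 scale, at 10.7 to 13.7 CPM. With the length of transcripts in place of that of all exons its level was 10.5 in wild type, above the 9.72 of Wnt6, so its place depends on the length used. The other ligands were lower. Wnt7a was higher by 3.22 (SE 0.97, adjusted p = 0.0126) in wild type and 2.59 (SE 0.933, adjusted p = 0.0304) in the labelled knockout, with the alternatives that ended its call given at the end. Wnt10b had 3 reads in wild type at day 0, all in replicate 2, and 134 at day 7, a ratio of 31.5 (10.6 to 155), and in the labelled knockout 0 and 110 reads, at least 36.0-fold higher. Wnt1, its neighbour at a distance of 11706 bases, had no read in any of the 12 libraries, which allows up to 0.00699 CPM over all of them. Wnt8b had 17 reads in 2 wild-type libraries of day 0 and none in the other groups. Wnt16 had 67 reads over 8 of the libraries and no more than 16 in 1. Wnt1, Wnt8b and Wnt16 were not tested.

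**Figure D2:**
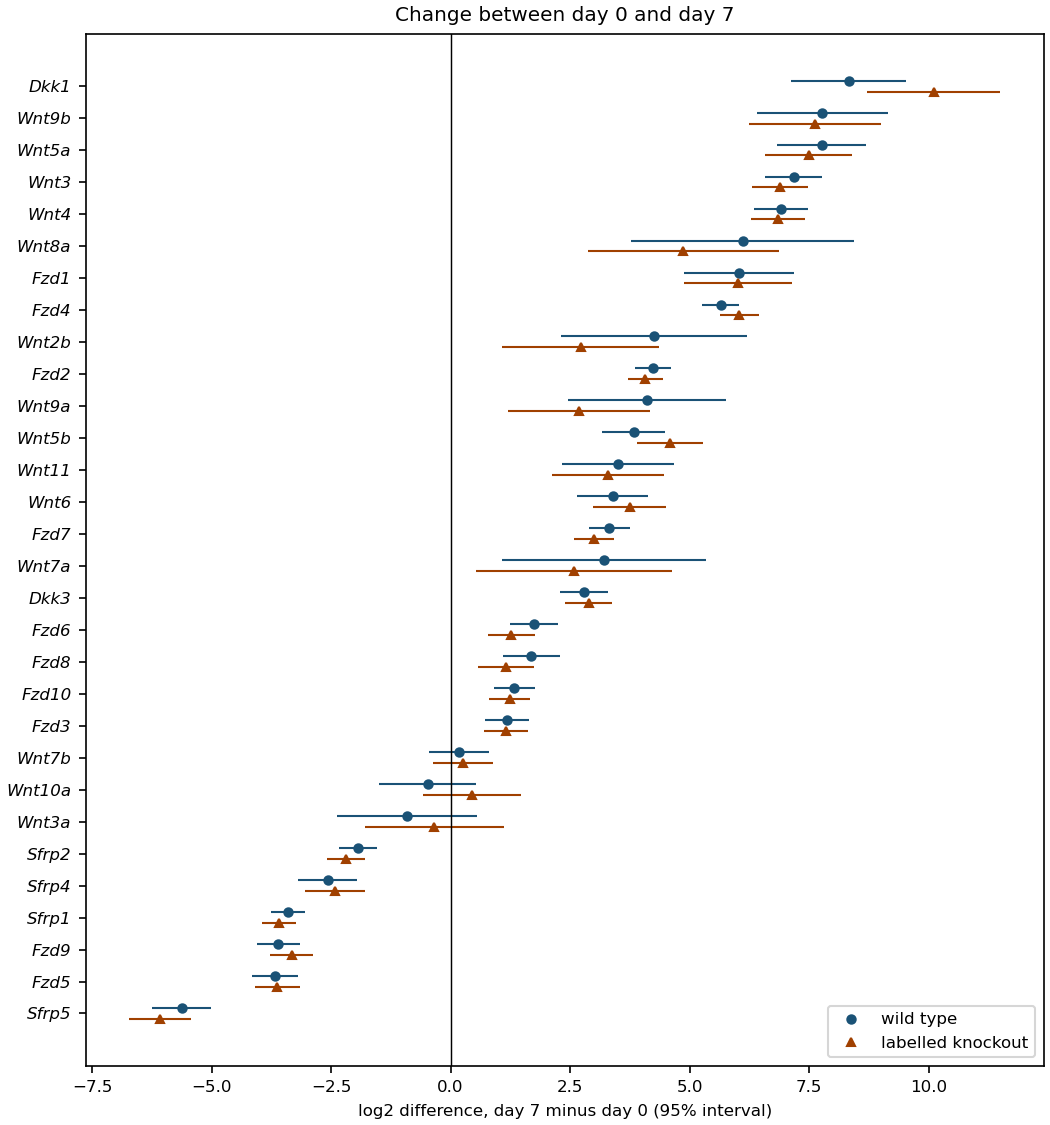
Fitted log2 difference between day 7 and day 0 with its 95% interval for the 30 tested members that had at least 1 read at day 0 in both genotypes, in order of the wild-type value. The wild-type values run from -5.62 for Sfrp5 to 8.33 for Dkk1, the intervals of Wnt3a, Wnt7b and Wnt10a span 0, and wild type (circles) and labelled knockout (triangles) overlap in each row.

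All 10 Frizzled receptors changed between the days in both genotypes, where 65.1% of all genes did in wild type and 63.4% in the labelled knockout. Of the 10, 8 were higher and 2 lower. The shares over all genes were 32.9% and 32.1% in wild type and 31.1% and 32.3% in the labelled knockout. The leading receptors at day 0 were the ones that fell. The median log2 difference of the 10 was 1.72 in wild type and 1.25 in the labelled knockout, where the median over all genes tested was 0.01 and -0.02. At day 0, Fzd9 (6.19 ± 0.536 CPM per kilobase) and Fzd5 (6.16 ± 0.611) were highest in wild type and overlapped, followed by Fzd10 (3.44 ± 0.316), then Fzd2 (2.42 ± 0.212) and Fzd7 (2.07 ± 0.277), which overlapped. Fzd5 and Fzd9 each made up 27.7% ± 2.66 and 27.9% ± 2.69 of the Frizzled sum. At day 7 the order in wild type was Fzd2 (45.8 ± 3.12), Fzd7 (20.7 ± 2.76), Fzd4 (15.2 ± 1.66) and Fzd10 (8.68 ± 1.505), and only Fzd10 overlapped with the next, Fzd1. In the labelled knockout the first 4 were the same, and none of them overlapped with the next. Fzd2 held 44.9% ± 3.09 of the Frizzled sum in wild type and 38.3% ± 1.49 in the labelled knockout, and Fzd5 and Fzd9 were at 0.48 ± 0.118 and 0.501 ± 0.0881 CPM per kilobase in wild type.

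Fzd5 (chr1:64730558-64737751, minus strand), a receptor known from yolk sac, eye and gut, was read at 47.5, 40.2 and 40.1 CPM in wild type at day 0 and at 3.95, 3.61 and 2.40 CPM at day 7. For the labelled knockout the values were 59.9, 45.1 and 40.1 CPM and then 4.12, 3.38 and 4.26 CPM. It fell by 3.67 (SE 0.218, adjusted p = 6.98e-08) and fell by 3.62 (SE 0.217, adjusted p = 8.1e-08) on the log2 scale. Fzd9 (chr5:135248938-135251230, minus strand), a receptor gene of 1 exon, went from 12.8, 14.7 and 15.1 CPM to 1.02, 1.38 and 1.05 CPM in wild type. Libraries labelled knockout went from 17.0, 13.6 and 12.5 CPM to 1.66, 1.38 and 1.23 CPM. It fell by 3.61 (SE 0.204) and fell by 3.33 (SE 0.202). Both receptors were lower in every library of day 7 than in any of day 0. Fzd8, which pairs with Fzd5 as the closest relative in sequence, went the other way, from 1.84 to 3.78 CPM over the libraries of day 0 to 4.92 to 8.48 CPM over those of day 7, a rise of 1.69 (SE 0.273) in wild type and 1.16 (SE 0.269) in the labelled knockout.

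Fzd2, Fzd7 and Fzd1 form a subfamily by sequence and all rose. Fzd2 (chr11:102604396-102608058, plus strand) went from 8.39, 8.45 and 9.76 CPM to 174, 175 and 155 CPM in wild type and from 7.54, 11.4 and 7.06 CPM to 152, 141 and 144 CPM in the labelled knockout. The log2 rises were 4.24 (SE 0.172, adjusted p = 3.36e-09) and 4.08 (SE 0.171, adjusted p = 4.58e-09). Fzd7 (chr1:59482424-59486955, plus strand), the Frizzled best studied in pluripotent cells, went from 10.6, 8.08 and 9.45 CPM to 80.4, 105 and 95.4 CPM in wild type. The labelled knockout went from 17.7, 11.1 and 11.5 CPM to 102.6, 112 and 108 CPM. Its rises were 3.32 (SE 0.192) and 3.001 (SE 0.188), smaller than those of Fzd2. Fzd1 (chr5:4753839-4758035, minus strand) was the lowest of the Frizzled genes at day 0, at 0.759, 0.141 and 0.382 CPM in wild type and 0.818, 0.492 and 0.193 CPM in the labelled knockout. At day 7 it was at 22.9, 31.7 and 24.3 CPM and at 30.4, 29.5 and 34.4 CPM. It had the largest rise of the receptors in wild type, at 6.03 (SE 0.521), and rose by 6.01 (SE 0.513) in the labelled knockout.

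Fzd4 (chr7:89404355-89413134, plus strand), a receptor known from the growth of retinal vessels, was at 2.24, 1.67 and 2.26 CPM in wild type at day 0 and at 99.4, 115 and 92.9 CPM at day 7. The labelled knockout libraries held 1.88, 1.21 and 1.71 CPM and then 106, 107 and 105 CPM. It rose by 5.65 (SE 0.18, adjusted p = 6e-10) and by 6.04 (SE 0.184, adjusted p = 4.61e-10), the smallest adjusted p among the members in each genotype. Fzd10 (chr5:128600844-128604093, plus strand), expressed in the primitive streak of the embryo, went from 10.3, 11.02 and 12.3 CPM to 23.6, 33.3 and 27.7 CPM in wild type. Under the knockout label it went from 19.8, 11.7 and 13.4 CPM to 34.9, 36.6 and 34.0 CPM. Its rise was modest, at 1.33 (SE 0.193) and 1.23 (SE 0.192). Fzd4, Fzd9 and Fzd10, which are grouped together by sequence, thus went in different directions. Fzd3 and Fzd6, the receptors best known from planar polarity (the alignment of cells within a sheet), rose by 1.19 (SE 0.21) and 1.75 (SE 0.228) in wild type and by 1.15 (SE 0.21) and 1.27 (SE 0.222) in the labelled knockout.

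**Figure D3:**
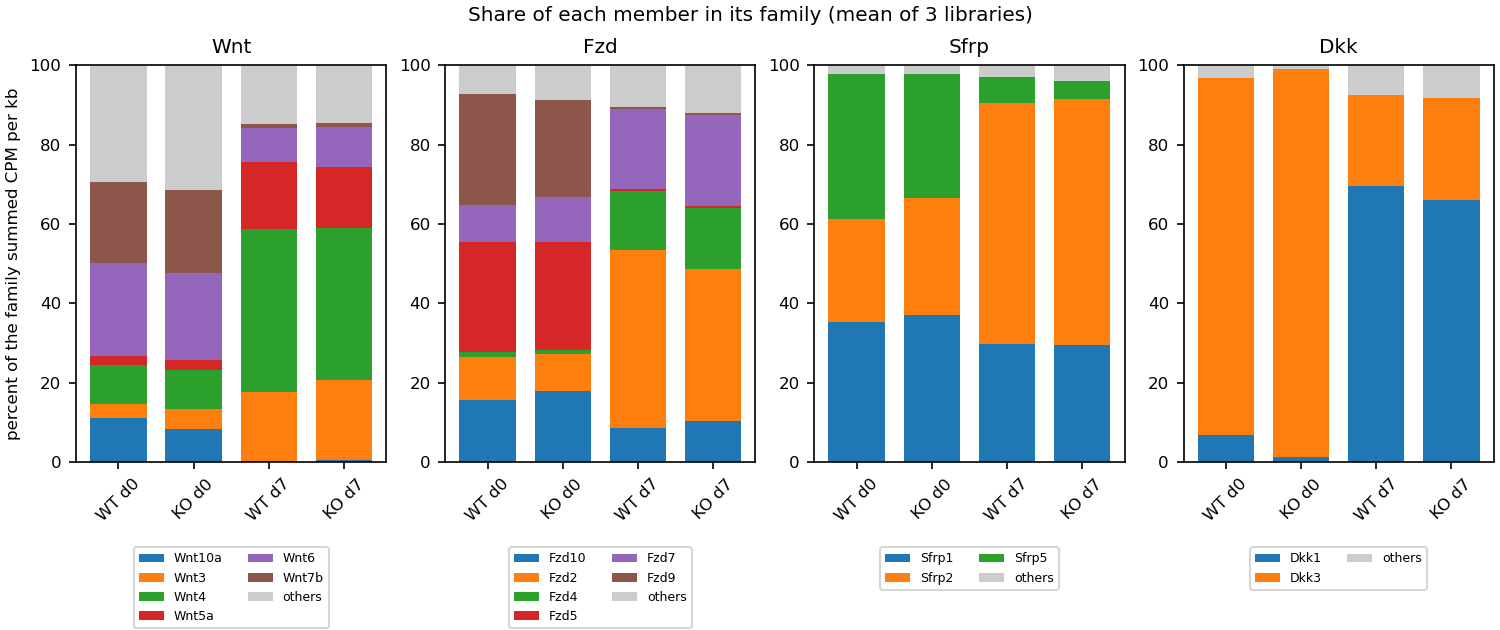
Share of each member in the summed CPM per kilobase of its family, as the mean of 3 libraries per group; members that reach 10% in no group are joined as others. The Frizzled bars pass from Fzd5 and Fzd9 at day 0 to Fzd2, Fzd7 and Fzd4 at day 7, and the Wnt bars pass from Wnt6 and Wnt7b to Wnt4, Wnt3 and Wnt5a.

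All 4 Sfrp genes fell in both genotypes, where 32.1% of all genes were called lower in wild type and 32.3% in the labelled knockout. The median log2 difference of the 4 was -2.99 in wild type and -3.004 in the labelled knockout. Over all genes tested it was 0.01 and -0.02. Sfrp5 (chr19:42197971-42202252, minus strand), known from the anterior endoderm of the embryo, was at 34.0, 45.7 and 47.9 CPM in wild type at day 0 and at 0.856, 0.95 and 0.735 CPM at day 7. The corresponding values under the knockout label were 30.3, 44.7 and 34.9 CPM and then 0.389, 0.439 and 0.806 CPM. It fell by 5.62 (SE 0.279, adjusted p = 1.68e-08) and fell by 6.07 (SE 0.293, adjusted p = 1.39e-08), the largest fall of any member. Sfrp1 (chr8:23411502-23449632, plus strand) went from 73.9, 110 and 101 CPM to 8.44, 10.4 and 8.01 CPM in wild type and from 94.3, 104 and 99.4 CPM to 8.87, 8.48 and 7.39 CPM in the labelled knockout. It fell by 3.40 (SE 0.164) and fell by 3.59 (SE 0.166). Per kilobase, Sfrp5 (22.4 ± 3.93), Sfrp1 (21.7 ± 4.25) and Sfrp2 (15.9 ± 4.12) overlapped in wild type at day 0, with neighbours in that order not apart, and exceeded every Wnt and Frizzled gene of that day.

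Sfrp2 (chr3:83766321-83774316, plus strand) was the Sfrp gene with the smallest fall. It went from 24.6, 36.5 and 41.9 CPM to 8.65, 9.81 and 8.44 CPM in wild type and from 40.7, 38.5 and 37.5 CPM to 7.99, 8.11 and 9.64 CPM in the labelled knockout, or by -1.93 (SE 0.18) and -2.18 (SE 0.182) on the log2 scale. At day 7 it stood first in the family at 4.16 ± 0.344 CPM per kilobase in wild type, apart from Sfrp1 at 2.05 ± 0.294, and made up 60.7% ± 1.41 of the Sfrp sum, against 25.8% ± 2.25 at day 0. Sfrp4 (chr13:19623104-19632994, plus strand), the most distant of these genes in sequence, went from 6.75, 4.12 and 4.83 CPM to 0.601, 1.11 and 0.89 CPM in wild type. The labelled knockout went from 5.76, 6.70 and 5.06 CPM to 0.96, 1.22 and 1.10 CPM. It fell by 2.58 (SE 0.283) and fell by 2.42 (SE 0.281).

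Dkk1, Dkk2 and Dkk3 were called higher at day 7 in both genotypes, and Dkk4 was not tested. Over all genes, 32.9% were called higher in wild type and 31.1% in the labelled knockout. Dkk1 and Dkk2 entered the test only through day 7 and could only be called higher. Dkk1 (chr19:30545863-30549665, minus strand), an inhibitor that is itself a known target gene of beta-catenin and whose promoter window is printed above, was at 0.24, 0.118 and 0 CPM in wild type at day 0 and at 35.8, 43.6 and 34.7 CPM at day 7. The log2 rise was 8.33 (SE 0.549, adjusted p = 1.62e-07). In the labelled knockout it had 3 reads at day 0, all in replicate 1, and 3761 at day 7, a ratio of 1229 (420 to 5964), at 36.1, 38.0 and 40.2 CPM. The levels of day 7 overlapped between the genotypes. Dkk2 (chr3:132085292-132180304, plus strand) was silent at day 0 in both genotypes, with 0 reads, and at day 7 reached 5.76, 6.16 and 6.43 CPM in wild type and at 5.55, 8.07 and 7.90 CPM in the labelled knockout. It was thus at least 195-fold and at least 228-fold higher. Dkk3 (chr7:112116017-112159057, minus strand), a divergent member that is not known to bind Lrp5 or Lrp6 as the others do, was the only Dkk gene above 0.1 CPM per kilobase on average at day 0. It went from 2.56, 1.74 and 3.196 CPM to 16.0, 17.5 and 17.9 CPM in wild type and from 3.48, 2.54 and 2.31 CPM to 21.6, 20.5 and 19.4 CPM in the labelled knockout, or by 2.79 (SE 0.225) and 2.89 (SE 0.225). Dkk4 had 15 reads in all, in 5 libraries. Per kilobase at day 7, Dkk1 (15.7 ± 2.01 in wild type), Dkk3 (5.11 ± 0.293) and Dkk2 (1.65 ± 0.0907) did not overlap.

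Other genes of the pathway were taken from lists of 87 genes, of which 82 were tested. In wild type 57 were higher and 13 lower at day 7, and in the labelled knockout 53 and 13, with a median log2 difference of 1.19 and 1.08. The shares over all genes were 32.9% higher and 32.1% lower in wild type and 31.1% and 32.3% in the labelled knockout, and they apply to each list below. Of the 82, 12 reached the count filter only in day 7 libraries and could only be called higher, so the counts are a description. These were Rspo2, Rspo3, Lgr5, Rnf43, Frzb, Cer1, Trabd2b, Sp8, Msgn1, Cdx2, Mesp1 and Daam2. The steps of ligand production went in opposite directions. Porcn, the acyltransferase, was at 81.9 to 108 CPM in wild type at day 0 and at 8.28 to 9.78 CPM at day 7, a fall by 3.41 on the log2 scale (SE 0.135, adjusted p = 2.79e-09), and it fell by 3.47 (SE 0.135) in the labelled knockout. Wls, the carrier of Wnt proteins, went from 0.903 to 1.22 CPM to 90.6 to 127 CPM in wild type, a rise of 6.66 (SE 0.262, adjusted p = 2.68e-09), and rose by 6.65 (SE 0.26) in the labelled knockout. The drop of Porcn and the rise of Wls thus ran beside the rise of the ligands.

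Of 8 co-receptors and alternative receptors, 7 were higher in wild type and 8 in the labelled knockout, and none was lower. They include the receptor kinases Ror2, higher by 2.34 (SE 0.138) in wild type, and Ror1, higher by 4.01 (SE 0.286), both known to bind Wnt5a, and Ryk, higher by 1.54 (SE 0.112). Of 9 genes for R-spondins (secreted amplifiers of the pathway), their receptors and the ligases that remove Frizzled from the membrane, 8 were tested, of which 8 were higher in wild type and 6 in the labelled knockout, but 4 of them could enter the test only through day 7. Rspo3 rose by 8.28 (SE 0.661) in wild type to 24.2 CPM and was at least 863-fold higher in the labelled knockout. Its wild-type reads of day 0 lay in a single library, at 0.243 CPM. Lgr5, an R-spondin receptor, was without reads in the wild-type libraries of day 0, and its level of day 7 was at least 138-fold higher, and Lgr4 was higher by 1.84 (SE 0.185). Of 10 other secreted modulators, 6 were tested, 3 were higher and 2 lower in each genotype, and those 3 entered the test only through day 7. Frzb, a relative of the Sfrp genes, rose by 7.88 (SE 0.608) in wild type, where the 4 named Sfrp genes fell, and Trabd2b, a protease that cleaves Wnts, rose by 6.82 (SE 0.649). The wild-type reads of Frzb at day 0 also lay in a single library, at 0.139 CPM. The lower genes were Notum, which removes the lipid from Wnts, by -2.53 (SE 0.381), and Dkkl1, by -1.71 (SE 0.256).

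Of 21 genes of beta-catenin regulation in the cytoplasm, 16 were higher and 2 lower in wild type, and 14 and 1 in the labelled knockout. Axin2, a scaffold of the destruction complex and a widely used target gene, was at 3.44 to 5.25 CPM in wild type at day 0 and at 48.2 to 59.998 CPM at day 7, a rise of 3.605 (SE 0.197, adjusted p = 3.58e-08). Nkd1, a feedback inhibitor, rose by 5.59 (SE 0.347), and Dvl3, which links Frizzled to that complex, by 1.36 (SE 0.0846). Of 13 nuclear effectors 8 were higher and 4 lower in each genotype. Lef1 rose by 4.68 (SE 0.162), from 3.82 to 5.15 CPM to 102 to 123 CPM, and the coactivators Bcl9l and Bcl9 rose by 2.83 (SE 0.0976) and 2.72 (SE 0.0957). The lower genes were Tcf7l1, which represses targets in ES cells, by -0.67 (SE 0.115), and the corepressors Tle1, Tle4 and Tle5.

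Of 20 direct targets of beta-catenin 15 were higher and 2 lower in wild type, and 15 and 3 in the labelled knockout, with a median log2 difference of 3.98 and 3.72. Of the 20, 6 (Sp8, Msgn1, Cdx2, Lgr5, Rnf43 and Mesp1) entered the test only through day 7 and could only be called higher. The medians include them. The brachyury gene T, a marker of the primitive streak, rose by 8.09 (SE 0.225, adjusted p = 2.49e-10) in wild type and 8.33 (SE 0.226) in the labelled knockout, and Tnfrsf19, a receptor of the TNF family, by 3.10 (SE 0.112) and 3.17 (SE 0.112). The 2 lower targets in wild type were Notum and Ccnd1, the gene of cyclin D1, whose difference was only -0.20 (SE 0.0663), and Cdx4 joined them in the labelled knockout at -1.69 (SE 0.288). Of 12 genes of the planar polarity branch 6 were higher and 3 lower in wild type, and 5 and 3 in the labelled knockout. Prickle1, a core polarity protein, rose by 5.98 (SE 0.202), and the actin regulators Daam2 and Daam1 rose by 9.29 (SE 0.75) and 2.25 (SE 0.241) in wild type. The 3 lower genes were Celsr1, Celsr2 and Celsr3, which encode cadherins of that branch. The target list shares T, Tbx6 and Mesp1 with the mesoderm markers, and its genes were listed as targets from other settings, so its counts describe these genes and not the activity of beta-catenin.

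The labelled knockout was next set against wild type at each day, to ask whether Sirt7 status went with a different Wnt profile. No member was called at day 0 by edgeR, where 0.13% of all genes were, nor at day 7, where 0.026% were. At day 0, 4 of 33 members had an unadjusted p under 0.05 (11.9% of all genes) and at day 7, 1 did (8.18%). DESeq2 called 1 member at day 0 and none at day 7, where it called 2.29% and 0.847% of all genes. The 95% interval of the difference lay within 1 on the log2 scale (2-fold) for 15 of the 31 members that had an interval at day 0 and for 23 of 33 at day 7. Its median half-width was 0.631 and 0.582. Wnt2 and Dkk2, without reads at day 0, had no interval there. For low ligands the intervals were wider, such as -1.303 to 4.59 for Wnt8a and -2.35 to 2.33 for Wnt9b at day 0, so larger differences of these genes were not detectable at this depth. The narrowest intervals were those of Sfrp1 at day 0, 0.07 (-0.26 to 0.40), and of Fzd4 at day 7, 0.05 (-0.26 to 0.37).

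The member with the smallest p at day 0 was Fzd6 (chr15:39006034-39038188, plus strand). It was at 7.13, 5.79 and 5.25 CPM in the labelled knockout against 4.11, 2.33 and 3.995 CPM in wild type, without overlap, a log2 difference of 0.81 (SE 0.226, 95% interval 0.31 to 1.302, edgeR adjusted p = 0.228). DESeq2 called it, at 0.80 (SE 0.243, adjusted p = 0.0396). At day 7 its groups were apart again, at 14.3, 15.3 and 14.2 against 10.3, 10.7 and 13.9 CPM, with a difference of 0.33 (-0.15 to 0.81). Fzd7 was also apart at day 0, at 0.52 (0.13 to 0.92, adjusted p = 0.299), and overlapped at day 7. The other members with an unadjusted p under 0.05 at day 0 were Wnt5b, at -0.77 (-1.47 to -0.07), and Wnt2b, at 2.06 (0.04 to 4.09), whose wild-type reads lay in 1 library; without that library, Wnt2b was called (adjusted p = 0.014). In all, 2 members had groups that did not overlap at day 0, against 15.7% of all genes, and 8 did at day 7, against 19.5% of all genes.

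The 8 members whose genotypes did not overlap at day 7 were Wnt2b, Wnt3, Wnt6, Wnt8a, Fzd6, Fzd10 and Dkk3, higher in the labelled knockout, and Fzd2, lower. Their differences were small, from -0.21 (-0.53 to 0.12) for Fzd2 to 0.53 (-0.96 to 2.02) for Wnt2b, and all of these intervals span 0. Wnt3, for example, differed by 0.24 (-0.18 to 0.66). The smallest p at day 7 was that of Sfrp5, at -0.67 (-1.299 to -0.03, edgeR adjusted p = 0.587), with overlapping groups. Some marker sums also lay apart between the genotypes at day 7. For mesoderm the sum was 2269 to 2507 CPM in wild type against 2000 to 2046 CPM in the labelled knockout. For fibroblasts it was 1317 to 1510 against 1051 to 1083 CPM, and for trophoblast 135.4 to 158.5 against 125.4 to 134.7 CPM. The neural sum was higher in the labelled knockout, at 210 to 244 CPM in wild type against 250 to 262 CPM. None of these markers was called. The mesoderm sum was set by Hand1, at a mean of 1945 CPM in wild type and 1508 CPM in the labelled knockout, while T (135 and 159 CPM), Eomes (106 and 122), Mixl1 (68.5 and 75.9), Pdgfra (92.1 and 100.3) and Kdr (37.6 and 41.3) were higher on average in the labelled knockout. The fibroblast sum was set mostly by Col1a1, at 1176 and 885 CPM. Their part in the differences of the 8 members was not tested.

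**Figure D4:**
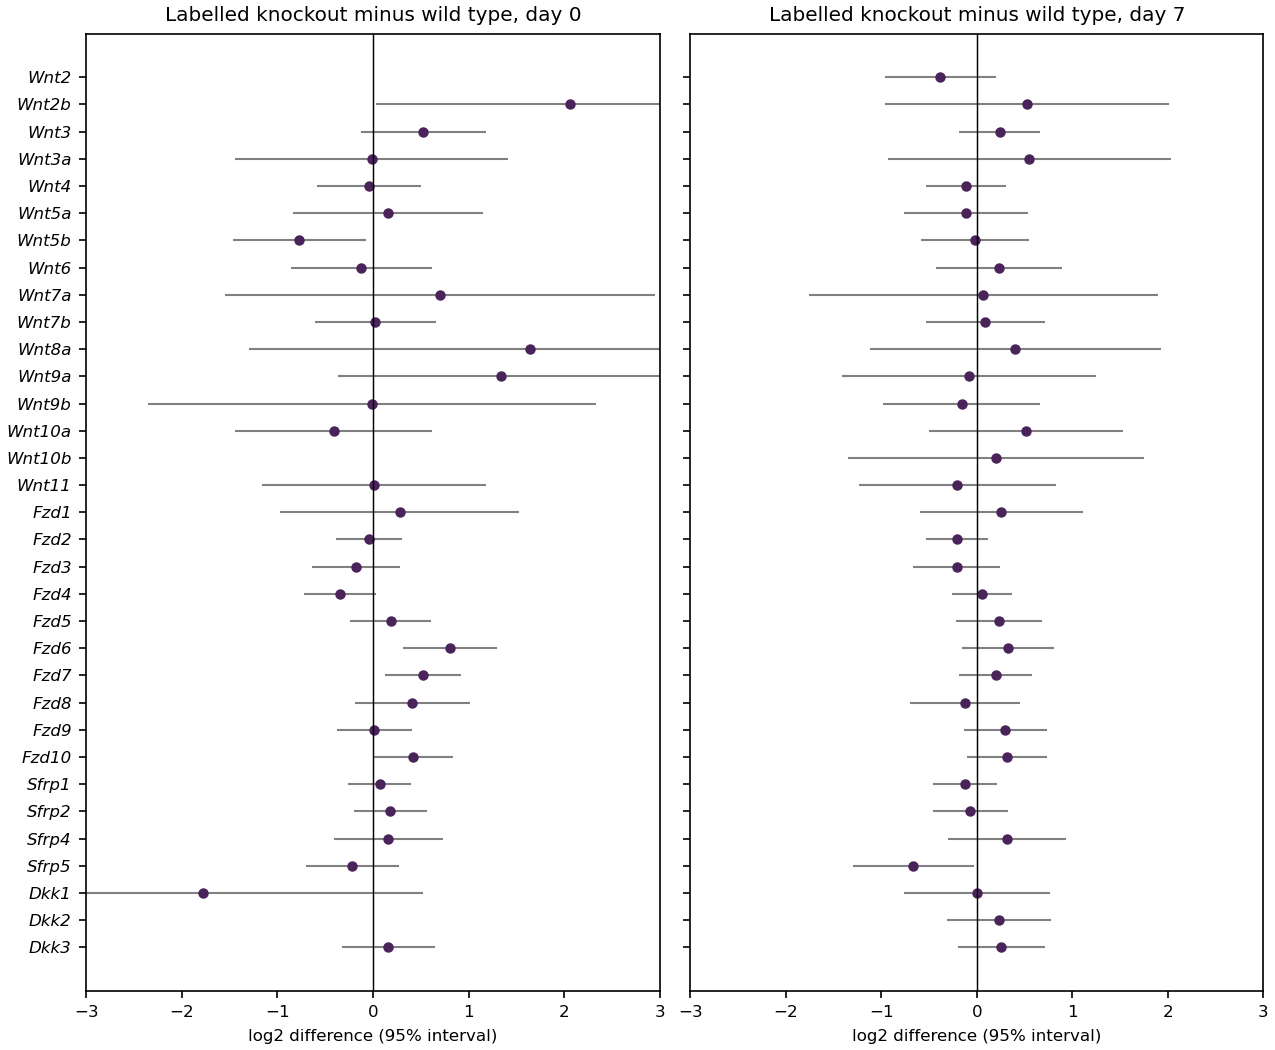
Log2 difference between the labelled knockout and wild type with its 95% interval for the tested members, at day 0 (left) and day 7 (right); members with no read in 1 of the groups are left out of that panel, and intervals are drawn only between -3 and 3. The intervals are wide for low ligands at day 0, and the points of the Frizzled and Sfrp genes lie within 1 of 0 on both days.

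The change over the 7 days was compared between genotypes as an interaction term. No member was called, where 0.026% of all genes were, and none had an unadjusted p under 0.05 (6.86% of all genes), while DESeq2 called none either (0.743% of all genes). The lowest adjusted p was 0.791, for Wnt5b, whose rise was larger in the labelled knockout by 0.75 (-0.14 to 1.65). The interval lay within 1 on the log2 scale for 13 of the 31 members that had one. For Sfrp1, the narrowest, the difference was -0.19 (-0.66 to 0.28), for Fzd2 -0.17 (-0.64 to 0.31), and for Wnt4 -0.07 (-0.75 to 0.62). None of the 82 pathway genes was called between genotypes or for the interaction by edgeR. At an unadjusted p under 0.05 were 13 at day 0 (11.9% of all genes), 2 at day 7 (8.18%) and 8 for the interaction (6.86%). DESeq2 called 1 of the 82, Lgr4, at day 0, where it called 2.29% of all genes, and for the interaction, where it called 0.743%. Lgr4 was at 6.36 to 10.8 CPM in the labelled knockout against 16.5 to 19.5 CPM in wild type at day 0, a difference of -0.99 (SE 0.184, edgeR adjusted p = 0.109, DESeq2 adjusted p = 9.94e-05), and at 66.7 to 71.0 against 53.7 to 75.3 CPM at day 7.

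The hybrid cells also allow reads to be assigned to the parental genomes, called genome 1 and genome 2 in the files, which do not say which strain each one is. Assignment succeeded for 29.7% to 32.0% of the reads per library, of which 27.0% to 28.0% went to genome 2, so an even share is not the background. At day 7, 22 members had at least 20 assigned reads in each of the 6 libraries. Of these 9 (40.9%) were under 5% genome 2 in both genotypes, namely Wnt4, Wnt5a, Wnt5b, Wnt7a, Fzd1, Fzd3, Fzd7, Dkk1 and Dkk2, where 44.1% of 11032 genes measured in the same way were. Between 30% and 70% lay 7 members (31.8%), Wnt2b, Wnt3, Wnt9b, Wnt11, Fzd4, Fzd10 and Dkk3, against 27.1% of genes. Only Fzd2 (4.55%) was over 95%, against 6.17% of genes. Members with almost no reads of 1 genome were thus about as common as among all genes, and whether a genome lacked RNA or reads that could be assigned to it was not tested.

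The neighbours Wnt3 and Wnt9b were read from both genomes at day 7, with a genome 2 share of 45.9% ± 2.40 and 43.5% ± 8.37 in wild type and 44.1% ± 3.597 and 49.2% ± 3.13 in the labelled knockout (SD, n = 3). Fzd4 was near even, at 51.2% ± 0.949 in wild type from 7563 assigned reads. For 9 members (Fzd2, Fzd3, Fzd5, Fzd6, Fzd7, Fzd8, Fzd10, Sfrp1 and Dkk3) the reads sufficed for a test of the share between the days. Fzd3 had no genome 2 read in any group, and Fzd7 had only 3, in wild type at day 7. The test could thus not show a change for Fzd3, and hardly for Fzd7. None of the 9 was called in either genotype, where 3.74% of 9344 genes were in wild type and 2.99% in the labelled knockout. Sfrp1, read mostly from genome 2, went from 70.7%, 79.3% and 79.0% at day 0 to 85.0%, 87.8% and 82.3% at day 7 in wild type (edgeR adjusted p = 0.15), and from 78.6%, 74.6% and 75.4% to 84.5%, 88.1% and 80.4% in the labelled knockout (adjusted p = 0.304). Its days did not overlap in either genotype. Dkk3 went from 12.5%, 4.44% and 10.3% to 34.1%, 36.0% and 33.2% in wild type (adjusted p = 0.201), and from 23.3%, 30.8% and 0% to 33.3%, 33.7% and 34.1% in the labelled knockout (adjusted p = 0.678). At day 0 these shares rest on as few as 26 assigned reads in a library, and without the knockout-labelled replicate 3 of day 0, Dkk3 was called in wild type.

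**Figure D5:**
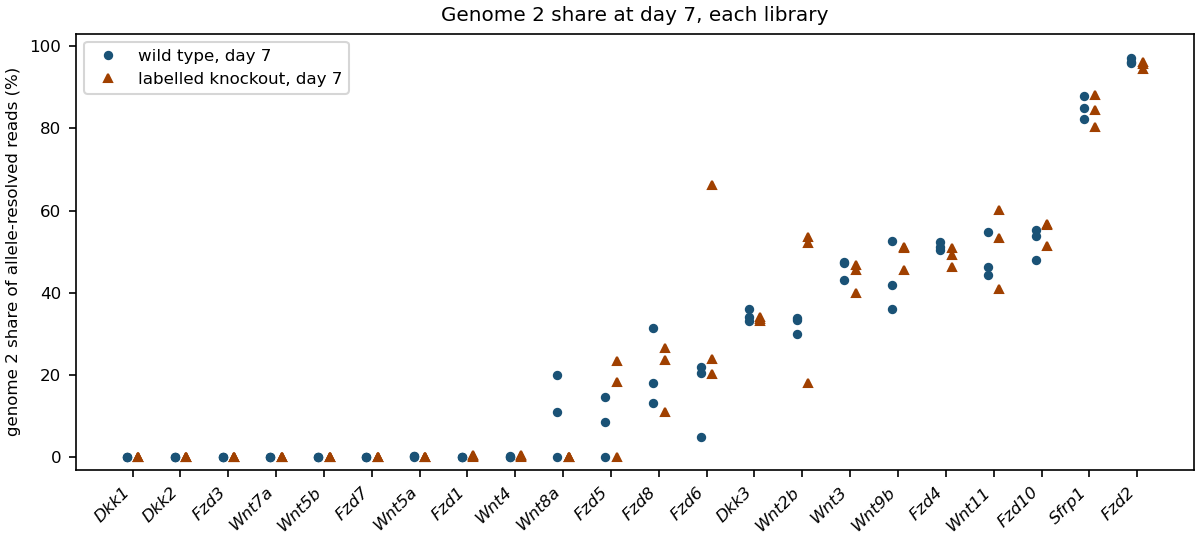
Genome 2 share of the reads that could be assigned to a genome, for each day 7 library and each of the 22 members with at least 20 such reads in all 6 libraries. The 9 members at the left lie at or near 0% in all libraries, Fzd2 lies over 94% at the right, and those near 50% include Wnt3, Wnt9b and Fzd4.

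The transcript table gives the annotated forms behind these totals, with reads divided among forms by the authors' software. Of Fzd6, the form Fzd6-202 held all reads in the 6 libraries of day 0. At day 7 the form Fzd6-201, which begins 299 bases further in, held 98.2%, 79.8% and 46.4% in wild type and 92.4%, 99.1% and 0% in the labelled knockout. The libraries of day 7 thus did not agree, and the knockout-labelled replicate 3 was like those of day 0. Of Sfrp4, the longer form Sfrp4-203 held 56.2%, 24.0% and 46.0% in wild type at day 0 and 100%, 53.3% and 91.3% at day 7, and 32.5%, 26.6% and 45.2% and then 94.6%, 100% and 97.1% in the labelled knockout. Forms of Wnt5a, Wnt5b and Wnt11 were divided so differently between libraries of 1 group that no form was described for them. These shares were not tested.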

How the data were processed

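PolyA RNA of 12 libraries (4 groups of 3) was extracted with TRIzol and made into libraries with NEBNext kits, per the labels' protocols. The submitters' processing notes name HISAT2 2.1.0 (an aligner), StringTie 1.3.3 (which estimates transcript abundance), DESeq2 1.32.0, the trimmer Trimmomatic 0.36, FastQC 0.11.3 and SAMtools 0.1.19, with the builds mm10 and GRCm38 and without parameters. The authors deposited expected counts per gene and per transcript, as whole numbers, and the same per parental genome. Whether counting used strand is not given in the sources used here, and 10 members overlap another annotated gene (Wnt2b, Wnt5a, Wnt5b, Wnt6, Wnt7b, Wnt11, Fzd3, Fzd5, Fzd6 and Sfrp2), so their reads cannot be told apart from their partners'. Gene positions and exon lengths are those of GENCODE vM21 (GRCm38), which held 55227 of the 55487 gene identifiers.

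Counts were tested with edgeR 4.0.16 (R 4.3.3, limma 3.58.1): a filter by group at about 0.337 CPM, TMM scaling, 1 coefficient per group over all 12 libraries, the quasi-likelihood test, and Benjamini-Hochberg adjustment over 19235 genes, with 0.05 as the threshold. Every adjusted p is from this fit unless DESeq2 (1.42.0) is named. CPM used TMM library sizes, and CPM per kilobase divided them by the union of exons. For groups with 0 reads, a floor of 3 reads over the group gives the bound of a fold, and with 1 to 3 reads an exact interval of the ratio is given. These intervals cover counting error only. Allele shares needed 20 assigned reads in a library, and were tested in edgeR with each library as a block and a term for the allele within each group. Steps were tested on simulated data. Other tables and figures were made with Python 3.11.15, pandas 2.3.3, scipy 1.17.1 and matplotlib 3.10.9.

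Library totals of 25190483 to 69079368 counts mean that 0 reads over the 3 libraries of a group allow up to 0.022 to 0.0312 CPM. Replicates of a group differed beyond sampling noise (chi-square per degree of freedom 24.6 to 60.7), so none was counted as a repeat. The members, pathway lists and markers were chosen with earlier results of these data known. Named with values in every library were up to 14 members with the largest rise and 10 with the largest fall in wild type (mean of at least 1 CPM in a group), any called between genotypes, and the top 3 per family and group by CPM per kilobase; of each pathway list up to 3 genes with the smallest adjusted p in wild type. Fzd6, Fzd8, Fzd3, Wnt3a, Wnt11, Wnt7a, Wnt10b, Lgr4, Rspo3, Lgr5 and the lower pathway genes were named after their values were seen. DESeq2, other size factors, no filter, the libraries of a comparison alone, replicate blocks, the treatment label and leaving out each library were tried as alternatives.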

Additional observations from a re-analysis of the deposited data

How the results depend on the processing

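The count of members changed between the days was 30 in wild type under every alternative run, with the same 30 genes, and 29 to 31 in the labelled knockout. Without each library in turn, the counts ran from 30 to 30 in wild type, from 29 to 31 in the labelled knockout, from 0 to 1 between genotypes at day 0, from 0 to 0 at day 7 and for the interaction, and from 0 to 1 for the allelic balance. The call at day 0 without wild-type replicate 1 was Wnt2b, whose wild-type reads all lay in that library, and the allelic call without labelled-knockout replicate 3 of day 0 was Dkk3; the cause was not tested. DESeq2 called 1 member between genotypes at day 0, Fzd6. Of the named values, 1336 were on the same side of the threshold and in the same direction as reported, 2 (Fzd6 and Wnt2b, above) passed only under an alternative, and none reversed. The remaining 6 were Wnt7a in the labelled knockout, with an adjusted p of 0.0501 to 0.0792: in a fit of its own libraries (log2 2.59), with the replicate number as a block (2.70) or as a block within genotype (2.94), and without labelled-knockout replicate 2 of day 0 (2.64), replicate 1 of day 7 (2.51) or replicate 3 of day 7 (2.42). With the replicate block the counts were 30 in wild type, 29 in the labelled knockout and 0 for both genotype comparisons and the interaction. Same-numbered libraries shared a number and, within a genotype, the treatment label. Their deviations from the group means correlated at -0.0243 to 0.0613 over 12 pairs, and 3 of 12 correlated best with their own number. These correlations cannot show whether such libraries shared a culture or clone. Ranked by transcript length in place of exon length (chosen after seeing the data), Wnt5a stood before Wnt3 at day 7, Wnt11 took the third place of the ligands at day 0 (from Wnt10a in wild type and Wnt4 in the labelled knockout) and passed Wnt6 in wild type at day 7, Fzd5 stood before Fzd9 in wild type at day 0, and Sfrp2 before Sfrp5 in the labelled knockout at day 0. Depth limits the ligands of day 0, where most had under 1 CPM.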
